A study of Homo sapiens with 8 samples.

Results

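Lysosomal hydrolases, lysosomal membrane proteins, proton pump components, progranulin and the transcription factors of the MiT/TFE family were examined in U-937 cells, an established human pro-monocytic leukemia line. The members were chosen by name, as 51 gene symbols of these classes, and matched 52 of the 61125 Ensembl rows of the deposited table, since its symbol column gave CLN3 for 2 identifiers. The identifier with fewer counts, ENSG00000261832.6, is named AC138894.1 in GENCODE 29, a separate protein-coding gene on chromosome 16 (28456371 to 28492098, minus strand) that overlaps CLN3, and it is called the second CLN3 identifier here after the deposited symbol. Of these 52 rows, 49 passed the filter on low counts and were tested among 14995 rows in all, while CTSL, SGSH and ACP5 did not pass. Cells were exposed for 72 h to PBS and DMSO (vehicle), to 250 µM L-ascorbic acid (LAA), to 1 µM all-trans retinoic acid (ATRA) or to both compounds (LAA+ATRA), with 2 RNA-sequencing libraries per group and 8 in all. ATRA is a retinoid that drives myeloid differentiation, and ascorbate is vitamin C, a reducing agent and cofactor of dioxygenases such as the TET enzymes. The comparisons ask what each compound does to these transcripts alone, what LAA adds to ATRA, and whether the pair differs from the sum of its parts. The labels do not say whether the 2 replicates of a group were separate cultures, so the p-values reflect the variation among these libraries alone, and that variation may be technical.

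The lysosome is the acid compartment in which macromolecules delivered by endocytosis, phagocytosis and autophagy are broken down. Proteases such as the cathepsins, glycosidases, sulfatases and lipid hydrolases work inside it at the low pH made by the vacuolar proton pump, and most of them are delivered through mannose 6-phosphate receptors. TFEB and its relatives TFE3 and MITF bind an E-box known as the CLEAR element in promoters of many lysosomal genes, and mTORC1 signaling at the lysosomal surface holds TFEB in the cytoplasm. Monocytes and macrophages are rich in lysosomes and in cathepsins, and myeloid cells also store proteases in azurophil granules, which are related organelles.

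Library totals ran from 18462552 to 24166770 estimated counts. The summed level of 10 monocytic and macrophage markers, among them LYZ, ITGB2, ITGAM and CD68, was 1663 to 1753 CPM (counts scaled to library size) in vehicle, 1820 to 1949 CPM with LAA, 3986 to 4244 CPM with ATRA and 3420 to 3442 CPM with LAA+ATRA, and no marker of this list was at 0 in all libraries, although CD14 and CD163 had only 18 and 15 counts over all 8. A sum over 7 neutrophil markers, nearly all of it CSF3R, was 96.6 to 104 CPM in vehicle and 73.7 to 76.2 CPM with LAA, and 321 to 388 CPM after ATRA and 235 to 261 CPM after LAA+ATRA. In the T and NK list, nearly all of it NKG7, the sum was 267 to 279 CPM in vehicle and 319 to 370 CPM with ATRA, in the B cell list 22.7 to 25.4 and 15.8 to 16.3 CPM, and in the fibroblast and endothelium list, nearly all of it PECAM1, 61.2 to 62.1 and 104 to 110 CPM. The defining markers CD3D, CD3E, CD8A and KLRD1 of T and NK cells, MS4A1 of B cells, HBB, ALAS2 and PF4 of erythroid and megakaryocytic cells, KRT18 and CDH1 of epithelium and COL3A1 and CDH5 of fibroblasts and endothelium had no counts in any library. The sums of the monocytic, neutrophil, T and NK and endothelial lists were thus higher with ATRA and that of the B cell list lower, and their part in the lysosomal results was not tested. In bulk RNA, more cells of a type and more RNA per cell cannot be told apart.

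Promoter sequences are shown for 5 members that carry the palindromic core of the CLEAR element, because TFEB and TFE3, its known binders, are themselves members that rose with ATRA. Promoters came from RefSeq on GRCh38.p14, as 300 bases from 250 before to 50 after each start, and matched 38 of the 51 symbols with 58 promoters. ARSA, ASAH1, ATP6V1H, CTSB, CTSK, CTSS, HEXA, LAMP2, LGMN, MANBA, NAGLU, PSAP and SGSH were not matched. The windows of 100 bases below, written 5′ to 3′ on the strand of the gene, have TCACGTGA in capitals. They lie on chr16:67481164-67481263 (ATP6V0D1, minus strand), chr20:45891235-45891334 (CTSA, plus strand, at a start inside the GENCODE 29 gene), chr17:80101458-80101557 (GAA, plus strand), chr13:113297139-113297238 (LAMP1, plus strand) and chr19:7522524-7522623 (MCOLN1, plus strand).
ATP6V0D1: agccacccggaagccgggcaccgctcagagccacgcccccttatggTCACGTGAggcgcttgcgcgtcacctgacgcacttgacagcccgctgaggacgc
CTSA: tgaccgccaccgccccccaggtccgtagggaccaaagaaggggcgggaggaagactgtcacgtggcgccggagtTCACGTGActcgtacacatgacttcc
GAA: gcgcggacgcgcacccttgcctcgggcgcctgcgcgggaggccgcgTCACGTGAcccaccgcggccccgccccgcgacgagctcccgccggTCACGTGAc
LAMP1: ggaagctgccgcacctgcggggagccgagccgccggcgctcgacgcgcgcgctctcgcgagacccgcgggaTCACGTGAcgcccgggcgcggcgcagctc
MCOLN1: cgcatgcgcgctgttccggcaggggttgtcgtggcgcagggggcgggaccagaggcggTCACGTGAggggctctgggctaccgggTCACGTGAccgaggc

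The first motif of each window begins 60 bases before the start in ATP6V0D1, 26 in CTSA, 77 in GAA, 29 in LAMP1 and 42 in MCOLN1, and the windows of GAA and MCOLN1 hold 2 copies. The LAMP1 promoter also has 2 copies in its 300 bases, of which the window shows 1, and 6 of the core CACGTG. CLN3 carries the motif past its start. TCACGTGA, searched on both strands, was found in 7 of the members' 58 promoters (12.1%), against 0.98% of all 35116 RefSeq promoters and 1.69% of the promoters of genes tested. Its 6-base core CACGTG, which every TCACGTGA contains, was found in 20.7% of the members' promoters, 7.26% of all promoters and 9.49% of those of genes tested. The element is known from promoters of many lysosomal genes, and the members were chosen as such genes. Their higher shares are therefore no test of the ATRA response. Among members that rose with ATRA, 6 of 38 promoters (15.8%) held TCACGTGA, and among members tested and not called it was 1 of 15 (6.67%), that of LAMP1. CLN3 was counted more than once, since its promoters overlap. Counted by gene, the motif was in 5 of 25 members that rose (20.0%) and 1 of 11 not called (9.09%). The ATRA calls of CLN3, GAA and MCOLN1 were lost under some alternatives, and the difference between these shares was not tested. Exact direct repeats of AGGTCA spaced by 1, 2 or 5 bases, a strict spelling of the retinoic acid response element, were in none of the members' promoters. They were in 0.0228%, 0.00285% and 0.0057% of all promoters. Strings this rare could hardly be met in 58 promoters, and other spellings were not searched. Their absence therefore does not show that the members lack such elements. A match describes letters in these windows and is not a measured binding site.

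On the FPKM scale, which is per length and allows genes to be compared, CTSD (cathepsin D, the aspartic protease of the lysosome) had the highest level of the members in every group. Its FPKM was 1500 ± 96.0 (SD, n = 2) in vehicle, rank 116 of all genes, and 17860 ± 652 with ATRA, rank 3 of all genes. In vehicle it was followed by NPC2, the soluble cholesterol transporter (384 ± 16.5 FPKM), ASAH1, acid ceramidase (260 ± 16.1), and CD63, a tetraspanin (257 ± 1.55). With ATRA, GRN was second at 1328 ± 128 FPKM, up from seventh at 228 ± 3.07 in vehicle, and was followed by NPC2 (743 ± 48.8), CD63 (737 ± 158), LAPTM5 (628 ± 3.62) and PSAP (547 ± 4.01). The FPKM levels of NPC2 and CD63 in the ATRA group did not differ from each other beyond their spread. The lowest tested members in vehicle were LGMN (0.115 ± 0.0674 FPKM), the second CLN3 identifier (0.767 ± 0.154), CTSK (0.845 ± 0.126) and MITF (0.898 ± 0.0103).

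**Figure D1:**
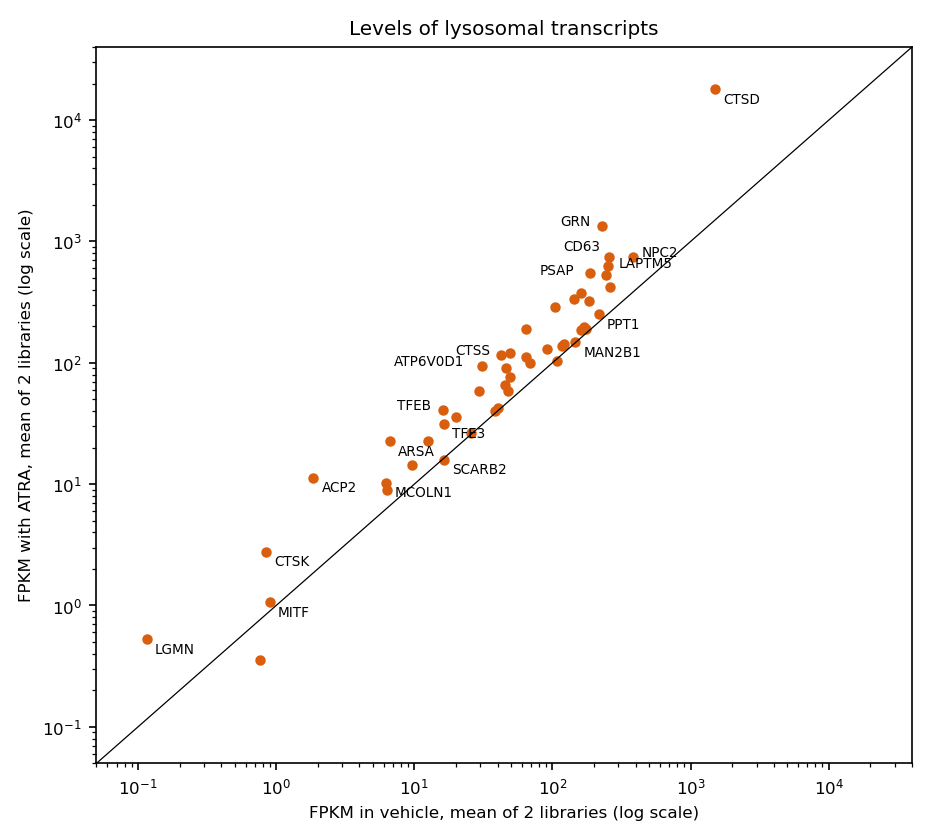
Mean FPKM of 2 libraries in vehicle (horizontal, log scale) and with ATRA (vertical, log scale) for the 49 lysosomal gene rows with a value above 0 in both groups, 1 point per row, with the line of equal levels. CTSD stands at the upper right, at 17860 FPKM with ATRA against 1500 in vehicle, and most points lie above the line.

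Together the members took up 1.08% ± 0.0153 (SD, n = 2) of all counts in vehicle and 0.952% ± 0.0326 with LAA, and 4.02% ± 0.243 after ATRA and 3.37% ± 0.0682 after LAA+ATRA. CTSD alone made up 0.258% and 0.268% of the vehicle libraries and 2.70% and 2.41% of the ATRA libraries. Without CTSD the share was 0.813% ± 0.0227 in vehicle and 1.46% ± 0.0337 with ATRA, and in the groups given LAA it was 0.710% ± 0.0183 without ATRA and 1.24% ± 0.00967 with it. Both libraries with ATRA lay above both vehicle libraries with and without CTSD, and both libraries of each LAA group lay below both libraries of the matching group without LAA.

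ATRA raised most of the lysosomal genes, across all classes, and lowered none that passed the test. Of 49 rows tested, 36 rose at an edgeR adjusted p under 0.05, against 21.9% of all genes tested, and 20 rose at least 2-fold, against 8.46% of all genes. None fell with edgeR, at an adjusted or unadjusted p under 0.05, or with DESeq2, while 21% of all genes tested fell and 6.03% fell at least 2-fold. The median log2 fold change was 0.76 over the members and -0.00 over all genes tested. By class, 8 of 10 proteases, 11 of 14 glycosidases and sulfatases, 5 of 8 genes of lipid handling, the phosphatase ACP2, 6 of 9 rows of membrane proteins, 2 of 3 acidification genes, GRN and 2 of 3 MiT/TFE factors rose. Both ATRA libraries lay above both vehicle libraries in 42 of the 49 rows, against 36% of all genes tested, and below them in 2, against 35.9%. The 36 rows called were all among those 42. The calls of LGMN, LAMP2, CLN3, GAA, ARSB and MCOLN1 were lost under some alternatives, and the other 30 were kept in every alternative run. LGMN, which is in these counts, passed the low-count filter only through its libraries with ATRA.

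**Figure D2:**
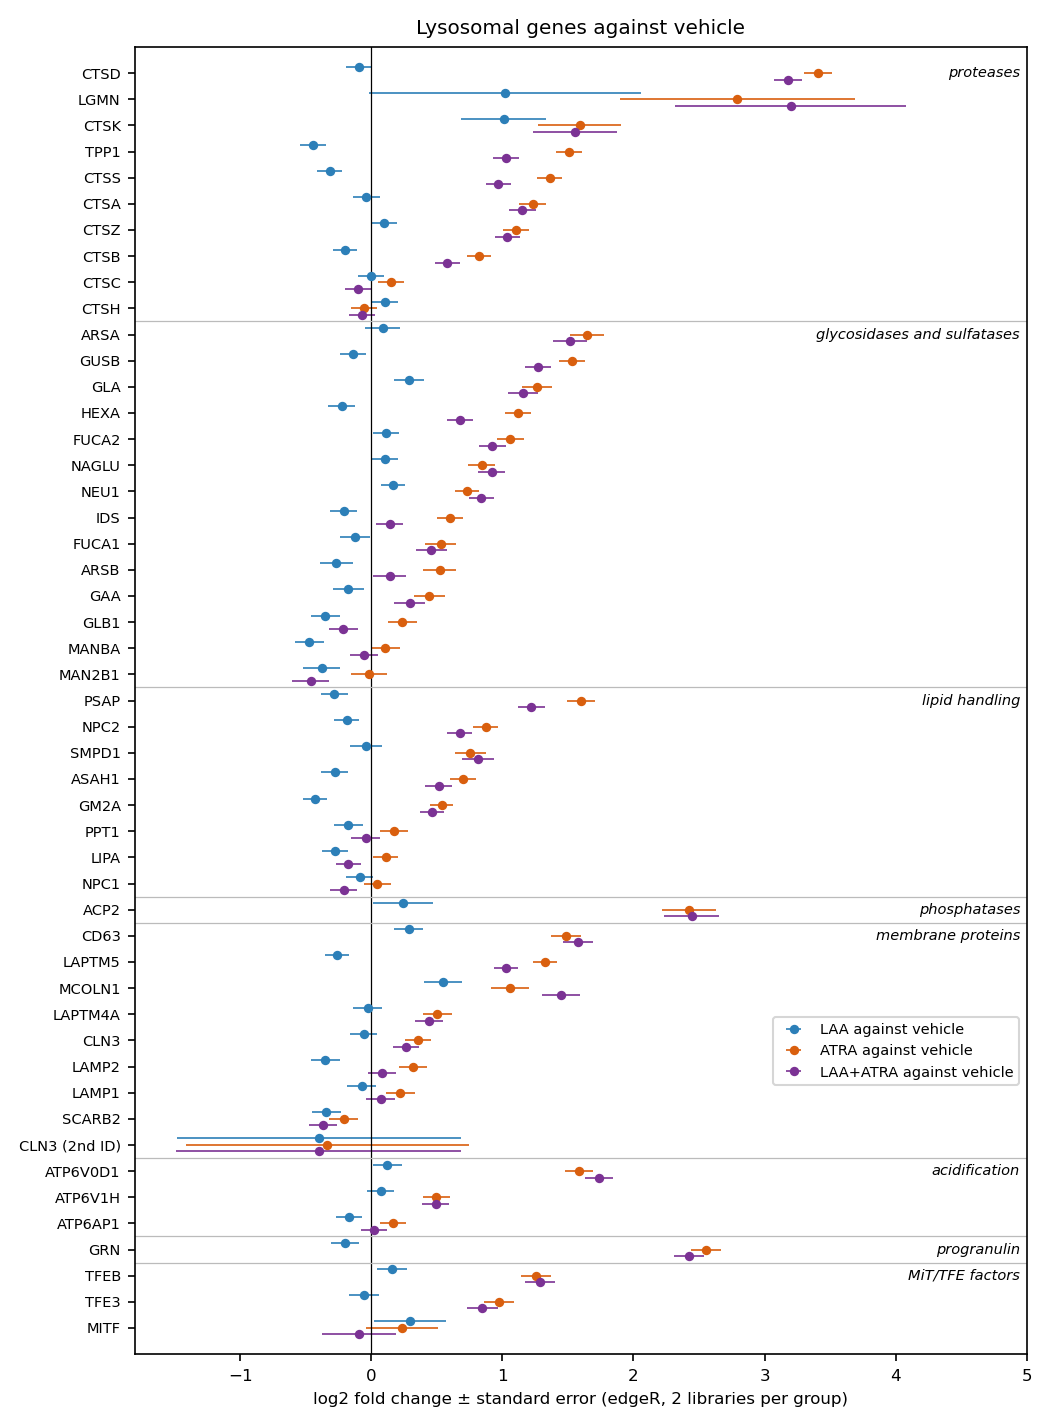
Log2 fold change against vehicle (horizontal, ± standard error from edgeR, 2 libraries per group) of each lysosomal gene row tested, grouped by class and ordered by its change with ATRA. The ATRA and LAA+ATRA points lie mostly right of 0, with CTSD at 3.41 and 3.18 and LGMN at 2.79 and 3.20, and the LAA points lie closer to 0, with TPP1, MANBA and GM2A farthest to its left and LGMN, CTSK and MCOLN1 farthest to its right.

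Among the proteases, cathepsin D rose most. CTSD (chromosome 11, 1752752 to 1764573, minus strand, GENCODE 29 on GRCh38) measured 2437 and 2542 CPM in the vehicle libraries, 27729 and 25117 with ATRA, 22475 and 22600 with LAA+ATRA and 2226 and 2442 with LAA. The libraries with ATRA were all far above those without it, and the groups did not overlap (10.6-fold, log2 fold change 3.41 ± 0.11, edgeR adjusted p = 5.8e-10). TPP1, tripeptidyl peptidase 1, which trims tripeptides from proteins (chromosome 11, 6612763 to 6619485, minus strand), went from 207 and 205 CPM to 611 and 563 CPM (2.85-fold, edgeR adjusted p = 2.4e-07). CTSS, cathepsin S, which trims the invariant chain of MHC class II in antigen-presenting cells, went from 78.5 and 76.0 CPM to 193 and 204 CPM (2.57-fold). Each of these genes had both ATRA libraries well above vehicle. CTSA, the serine carboxypeptidase that also protects sialidase and beta-galactosidase, rose 2.35-fold from 233 and 231 CPM to 563 and 528 CPM. CTSZ, a carboxypeptidase, rose 2.15-fold from 310 and 307 CPM to 667 and 659 CPM. CTSB, the most broadly expressed cysteine cathepsin, rose 1.77-fold (365 and 359 CPM to 645 and 634 CPM). CTSK, the collagen-degrading cathepsin of osteoclasts, stayed low in all groups, at 1.49 and 1.55 CPM in vehicle and 4.20 and 4.96 CPM with ATRA (log2 fold change 1.59 ± 0.32, adjusted p = 0.0016).

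LGMN, legumain or asparaginyl endopeptidase, was close to the floor of the data. It had 2 and 1 counts in vehicle, 2 and 4 with LAA, 11 and 11 with ATRA and 14 and 13 with LAA+ATRA. The depth-adjusted ratio of ATRA to vehicle counts was 7.36 with an exact 95% interval of 2.21 to 38.4, which covers counting error only. Its call (edgeR adjusted p = 0.024) was lost when either vehicle library or either ATRA library was left out. CTSC, which activates granule serine proteases, and CTSH, an aminopeptidase, were the 2 tested proteases that were not called. CTSC measured 198 and 203 CPM in vehicle and 207 and 238 CPM with ATRA (log2 fold change 0.15 ± 0.10), and CTSH 121 and 118 CPM against 115 and 114 CPM (-0.06 ± 0.10).

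The enzymes that strip sugars and sulfate from glycoproteins, glycolipids and glycosaminoglycans rose more moderately, by up to 3.13-fold. ARSA, the sulfatase of sulfatide, went from 13.2 and 13.5 CPM to 45.5 and 38.3 CPM with ATRA (log2 fold change 1.65 ± 0.13, adjusted p = 1.1e-06). GUSB, beta-glucuronidase (chromosome 7, 65960684 to 65982314, minus strand), went from 166 and 156 CPM to 478 and 453 CPM (2.89-fold). GLA, alpha-galactosidase A, the enzyme deficient in Fabry disease, went from 57.0 and 55.2 CPM to 125 and 145 CPM (2.41-fold). In all 3 the libraries with ATRA lay above those without it. HEXA, the alpha subunit of hexosaminidase A deficient in Tay-Sachs disease, rose 2.17-fold from 236 and 231 CPM to 475 and 539 CPM. FUCA2, a fucosidase, rose 2.08-fold from 84.5 and 86.2 CPM to 169 and 187 CPM. Smaller rises were called for NAGLU (1.79-fold), NEU1, the sialidase (1.66-fold), IDS, iduronate sulfatase (1.52-fold), FUCA1 (1.44-fold), ARSB (1.44-fold) and GAA, the acid alpha-glucosidase of glycogen (log2 fold change 0.44 ± 0.12). The GAA call was lost when either vehicle library was left out. The other 3 tested members of this class were not called, namely GLB1, beta-galactosidase (log2 fold change 0.24 ± 0.11), MANBA, beta-mannosidase (0.11 ± 0.11), and MAN2B1, alpha-mannosidase (-0.02 ± 0.14).

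Lipid handling was led by PSAP, prosaposin, the precursor of the saposins that lift sphingolipids toward their hydrolases (chromosome 10, 71816298 to 71851375, minus strand). PSAP measured 457 and 409 CPM in vehicle and 1322 and 1308 CPM with ATRA, with no overlap (3.03-fold, log2 fold change 1.60 ± 0.11, edgeR adjusted p = 2.3e-07). NPC2, which hands cholesterol to NPC1, rose 1.83-fold from 183 and 179 CPM to 313 and 350 CPM. The membrane cholesterol exporter NPC1 itself gave 67.1 and 64.5 CPM against 72.3 and 63.6 CPM, and these groups overlapped (log2 fold change 0.05 ± 0.10). SMPD1, acid sphingomyelinase, rose 1.69-fold, ASAH1 rose 1.62-fold and GM2A, the activator that presents ganglioside GM2 to hexosaminidase, rose 1.45-fold. LIPA, lysosomal acid lipase, with a log2 fold change of 0.11 ± 0.10, and PPT1, palmitoyl-protein thioesterase, with 0.17 ± 0.11, were not called. The saposin precursor and ganglioside and sphingolipid enzymes were thus called, and the acid lipase and NPC1 were not, although these differences between genes were not tested.

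The largest rises after CTSD and the scarce LGMN were in GRN and ACP2. GRN encodes progranulin, a secreted and lysosomal protein cleaved into granulins (chromosome 17, 44345086 to 44353102, plus strand), and measured 396 and 393 CPM in vehicle, 2498 and 2131 CPM with ATRA and 2213 and 2032 CPM with LAA+ATRA. All 4 libraries with ATRA stood above the others (5.86-fold for ATRA, log2 fold change 2.55 ± 0.11, edgeR adjusted p = 8.4e-09). ACP2, the lysosomal acid phosphatase, was a low transcript, at 3.22 and 2.28 CPM in vehicle and 15.3 and 14.4 CPM with ATRA (5.37-fold, adjusted p = 2.2e-06).

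Membrane proteins divided into some that rose about as much as the hydrolases and some that moved little. CD63 went from 184 and 175 CPM to 453 and 552 CPM (2.80-fold), and LAPTM5, a lysosomal membrane protein of hematopoietic cells, from 479 and 465 CPM to 1166 and 1204 CPM (2.51-fold). MCOLN1, the calcium channel TRPML1 that releases lysosomal calcium, went from 8.66 and 8.05 CPM to 18.8 and 16.1 CPM (2.08-fold, adjusted p = 9.4e-05). The ATRA libraries of these genes lay above vehicle throughout. LAPTM4A rose 1.42-fold, CLN3 1.28-fold and LAMP2, the membrane glycoprotein needed for fusion with autophagosomes, 1.25-fold, and the calls of CLN3 and LAMP2 were each lost when either vehicle library was left out, among other alternatives. LAMP1, the most used marker of the compartment, gave 411 and 408 CPM in vehicle and 515 and 440 CPM with ATRA, a log2 fold change of 0.22 ± 0.11 that was not called. SCARB2, the membrane protein LIMP-2, a sorting receptor of the lysosome, gave 67.6 and 66.2 CPM against 56.1 and 59.4 CPM (-0.21 ± 0.11, not called). The second CLN3 identifier had between 0 and 26 counts per library and a standard error of 1.1 on the log2 scale, and reads may be split between it and the main CLN3 row.

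Of the pump genes, ATP6V0D1, a subunit of the membrane sector, rose with ATRA, from 42.5 and 37.3 CPM to 122 and 117 CPM (log2 fold change 1.58 ± 0.11, edgeR adjusted p = 2.7e-07). ATP6V1H, a subunit of the cytoplasmic sector, rose 1.41-fold (46.6 and 47.0 CPM to 67.4 and 64.6 CPM). ATP6AP1, an assembly factor of the pump, measured 294 and 295 CPM in vehicle and 354 and 306 CPM with ATRA and was not called (0.16 ± 0.10). For all 3 both ATRA libraries lay above both vehicle libraries, as in 36% of all genes tested.

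Of the transcription factors, TFEB (chromosome 6, 41683978 to 41736259, minus strand) gave 35.4 and 32.1 CPM in vehicle, 37.9 and 37.5 CPM with LAA, 83.3 and 78.1 CPM with ATRA and 89.6 and 75.0 CPM with LAA+ATRA. Every library with ATRA was above every library without it (2.39-fold for ATRA, log2 fold change 1.26 ± 0.11, edgeR adjusted p = 3.3e-06). TFE3 (chromosome X, 49028726 to 49043486, minus strand) gave 45.2 and 50.5 CPM in vehicle and 98.2 and 89.9 CPM with ATRA (0.97 ± 0.11, adjusted p = 3.0e-05). MITF was low, at 3.80 and 3.88 CPM in vehicle and 4.09 and 4.92 CPM with ATRA, and was not called (0.23 ± 0.28). Transcript levels of these factors do not measure their location in the cell, through which their activity is mainly set.

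**Figure D3:**
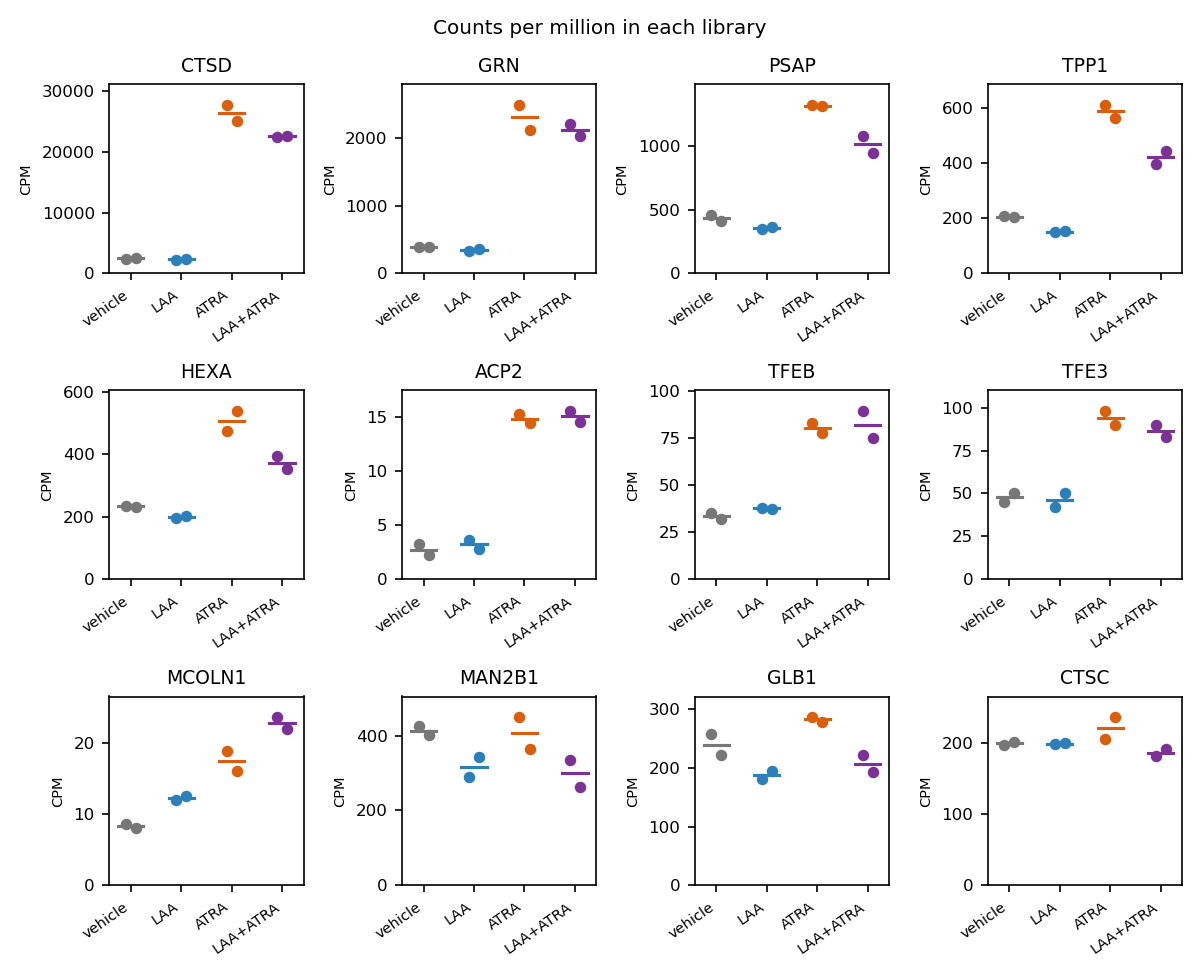
CPM in each library (points) and the mean of the 2 libraries of a group (lines) for 12 lysosomal genes, each on its own axis from 0, in vehicle, LAA, ATRA and LAA+ATRA. CTSD, GRN, PSAP, TPP1, HEXA, ACP2, TFEB and TFE3 are high in all libraries with ATRA, MCOLN1 is highest with LAA+ATRA, MAN2B1 and GLB1 are lower in the LAA groups, and CTSC stays between 183 and 238 CPM.

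The 3 remaining members gave too few counts to be tested. CTSL, cathepsin L (chromosome 9, 87725519 to 87731393, plus strand), was listed at 0 counts in all 8 libraries, which allows up to 3 counts per library by counting error. SGSH, the heparan sulfamidase (chromosome 17, 80206716 to 80220923, minus strand), had 2 counts in LAA replicate 2 and in LAA+ATRA replicate 1 and 0 in the other libraries. ACP5, the tartrate-resistant phosphatase of osteoclasts and macrophages (chromosome 19, 11574660 to 11579008, minus strand), had 9 counts in vehicle replicate 2, 4 in LAA replicate 2, 2 in LAA+ATRA replicate 1 and 0 elsewhere. These are estimated counts, and an estimate of 0 can also come from how reads were assigned among similar transcripts, which was not tested.

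LAA alone changed no lysosomal gene past the test, and more of their small differences were negative than positive. No member was called higher or lower against vehicle with edgeR, while 0.02% of all genes tested were called higher and 0.00667% lower. At an unadjusted p under 0.05, 13 members were lower (8.88% of all genes tested) and 4 higher (10% of all genes tested). Of the 49 rows, 33 had a negative log2 fold change (67.3%, against 48.6% of all genes), with a median of -0.09 over the members and 0.01 over all genes. Both LAA libraries lay below both vehicle libraries in 26 of the 49 rows, a higher share than the 27.4% of all genes. They lay above in 12 of the 49, near the share of 28.6% of all genes. DESeq2 on the same counts called 10 members lower, namely ASAH1, CTSS, GLB1, GM2A, LAMP2, LAPTM5, MAN2B1, MANBA, PSAP and TPP1, against 3.18% of the 8642 genes to which it gave an adjusted p. Fitting only the 4 libraries compared gave 14 members lower, against 6.79% of genes, and 3 (CD63, GLA and MCOLN1) higher, against 8.59%.

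The members farthest down with LAA had small and closely replicated differences. MANBA measured 75.5 and 68.4 CPM in vehicle and 49.4 and 54.3 CPM with LAA (log2 fold change -0.47 ± 0.11, edgeR adjusted p = 0.062). TPP1 measured 207 and 205 CPM against 149 and 154 CPM (-0.44 ± 0.10, adjusted p = 0.059). GM2A measured 217 and 222 CPM against 159 and 166 CPM (-0.43 ± 0.09, adjusted p = 0.056). In each the groups did not overlap, and none passed the threshold. All 8 tested genes of lipid handling had a negative log2 fold change, from -0.43 for GM2A to -0.04 for SMPD1, with a median of -0.23. MCOLN1 had a positive difference, with 8.66 and 8.05 CPM in vehicle against 11.9 and 12.5 CPM (0.55 ± 0.15, adjusted p = 0.088), as had CTSK, with 1.49 and 1.55 CPM against 3.77 and 2.36 CPM (1.01 ± 0.32, adjusted p = 0.13). CD63 and GLA had log2 fold changes of 0.28 ± 0.11 and 0.29 ± 0.11. The neutrophil marker sum was also lower with LAA, both without and with ATRA (values above), and the monocytic sum was higher with LAA than in vehicle and lower with LAA+ATRA than with ATRA, and their part in these differences was not tested.

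In the presence of ATRA, TPP1 was the 1 lysosomal gene that fell with LAA, and most of the other differences were negative and small. TPP1 measured 611 and 563 CPM with ATRA and 396 and 443 CPM with LAA+ATRA (0.716-fold, log2 fold change -0.48 ± 0.10, edgeR adjusted p = 0.047), and the 2 groups did not overlap. This call is close to the threshold. It was lost when either vehicle library, either LAA library, ATRA replicate 1 or LAA+ATRA replicate 1 was left out, with only the 4 libraries compared, and with FPKM values. No member was called higher with edgeR or DESeq2. Of all genes tested, 0.493% were called higher and 0.52% lower. At an unadjusted p under 0.05, 16 members were lower (9.4% of all genes tested) and 1, MCOLN1, higher (9.16% of all genes tested).

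Of 49 rows, 40 had a negative log2 fold change for LAA+ATRA against ATRA (81.6%, against 49.4% of all genes), and the median was -0.14 over the members and 0.00 over all genes. Both LAA+ATRA libraries lay below both ATRA libraries in 26 members, against 22.9% of all genes, and above them in 4, against 21.2% of all genes. IDS measured 69.2 and 62.9 CPM with ATRA and 46.1 and 49.8 CPM with LAA+ATRA (-0.46 ± 0.10, adjusted p = 0.053). GLB1 measured 287 and 278 CPM against 221 and 192 CPM (-0.45 ± 0.11, adjusted p = 0.067), and HEXA 475 and 539 CPM against 394 and 352 CPM (-0.44 ± 0.10, adjusted p = 0.058). These 3 glycosidases and sulfatases did not overlap between the groups and missed the threshold. CTSS measured 193 and 204 CPM against 149 and 153 CPM (-0.39 ± 0.09, adjusted p = 0.065), and PSAP 1322 and 1308 CPM against 1075 and 946 CPM (-0.38 ± 0.10, adjusted p = 0.086). DESeq2 called 9 members lower, namely TPP1, CTSB, CTSS, GLB1, HEXA, IDS, LAPTM5, MAN2B1 and PSAP, against 4.13% of the 8176 genes to which it gave an adjusted p. Offsets for transcript length and GC content, an alternative chosen after seeing the data, gave 12 lower calls, against 1.61% of genes.

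The LAA comparisons without and with ATRA share no library, and the same members tended to lie low in both. In 21 of 49 rows both LAA libraries lay below both vehicle libraries and both LAA+ATRA libraries lay below both ATRA libraries, against 12.5% of all genes tested. These were ARSB, ASAH1, ATP6AP1, CTSB, CTSS, GLB1, GM2A, GUSB, HEXA, IDS, LAMP2, LAPTM5, LIPA, MAN2B1, MANBA, NPC1, NPC2, PPT1, PSAP, SCARB2 and TPP1, which are 7 of the 14 glycosidases and sulfatases, 7 of the 8 genes of lipid handling, 3 of the 10 proteases, 3 of the 9 rows of membrane proteins and 1 of the 3 acidification genes. These positions were read on the CPM scale. By FPKM, the LAA+ATRA and ATRA libraries of ATP6AP1, MAN2B1, MANBA, NPC1 and PPT1 overlapped, as did the LAA and vehicle libraries of NPC1. The opposite pattern was seen by CPM in LGMN, MCOLN1 and NEU1, against 11.5% of all genes. LGMN had few counts (2 and 1 in vehicle, 2 and 4 with LAA), and by FPKM its libraries overlapped in both comparisons. The LAA and vehicle libraries of MCOLN1 also overlapped by FPKM. Across the 49 rows the log2 fold changes of LAA without and with ATRA had a Pearson's r of 0.68 and a Spearman's rho of 0.68. Across all 14995 genes tested these were 0.18 and 0.39. The points are genes measured in the same 8 libraries and are not independent replicates.

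**Figure D4:**
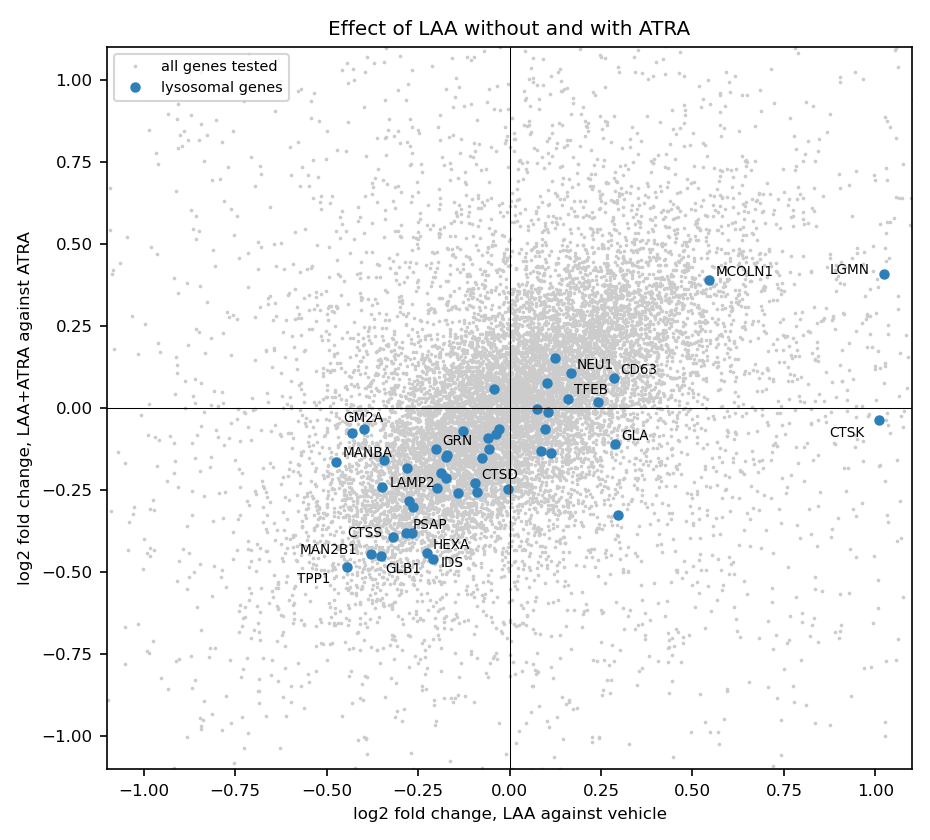
Log2 fold change of LAA against vehicle (horizontal) and of LAA+ATRA against ATRA (vertical) for the 14995 genes tested (grey) and the 49 lysosomal gene rows (blue), with 1075 genes and no lysosomal gene outside the axes. Most lysosomal genes lie in the lower left, with TPP1 at -0.44 and -0.48, and MCOLN1 lies in the upper right at 0.55 and 0.39.

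Against vehicle, LAA+ATRA raised most of the lysosomal genes, with CTSD, GRN and ACP2 at the top beside the scarce LGMN. It raised 32 of 49 rows (23.1% of all genes tested rose) and lowered 2 (21.5% of all genes fell), with a median log2 fold change of 0.67. The 2 that fell were MAN2B1 and SCARB2. MAN2B1 measured 424 and 400 CPM in vehicle, 290 and 344 CPM with LAA, 450 and 365 CPM with ATRA and 335 and 263 CPM with LAA+ATRA (-0.46 ± 0.14 for LAA+ATRA against vehicle, edgeR adjusted p = 0.017). SCARB2 measured 67.6 and 66.2 CPM in vehicle, 50.3 and 55.2 CPM with LAA, 56.1 and 59.4 CPM with ATRA and 47.4 and 56.1 CPM with LAA+ATRA (-0.37 ± 0.11, adjusted p = 0.015). For both, LAA+ATRA lay below vehicle without overlap, and both calls were lost when either vehicle library was left out. The MAN2B1 call was also lost with FPKM values and without LAA+ATRA replicate 2. The SCARB2 call was also lost without LAA+ATRA replicate 1 and with offsets for transcript length and GC content. CTSD was 9.05-fold above vehicle, GRN 5.38-fold, ACP2 5.44-fold and ATP6V0D1 3.33-fold. GAA, LAMP2, IDS and ARSB, which were called with ATRA, were not called with LAA+ATRA, with log2 fold changes of 0.29 ± 0.12, 0.08 ± 0.11, 0.14 ± 0.10 and 0.14 ± 0.12, and none of these 4 was called for LAA+ATRA against ATRA. The ATRA and LAA+ATRA comparisons share the vehicle libraries.

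Added to LAA, ATRA raised 36 of 49 rows and lowered none, by edgeR at an adjusted or unadjusted p under 0.05 or by DESeq2, where 18.4% of all genes tested rose and 18% fell. The median log2 fold change was 0.79, and CTSD again led with 3.27 ± 0.10, followed by GRN with 2.63 ± 0.11 and ACP2 with 2.20 ± 0.20. MANBA, which was not called for ATRA alone, was called here (0.42 ± 0.11, edgeR adjusted p = 0.011), from 49.4 and 54.3 CPM with LAA to 64.3 and 74.1 CPM with both. CTSK was not called (0.54 ± 0.30). The difference itself, the interaction of LAA and ATRA, was called for no member in either direction with edgeR or DESeq2, against 0.00667% of all genes tested higher and 0% lower. At an unadjusted p under 0.05 the interaction was lower for CTSK and GLA and higher for GM2A. No member's response to ATRA was therefore shown to differ with LAA.

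Other genes of the pathway moved with ATRA in the same direction as the members in most lists, with single genes going the other way. The shares to read these counts against are again 21.9% of all genes tested higher and 21% lower. Of 28 other lysosomal hydrolases tested, 18 rose and 1, HYAL2, fell. SCPEP1, a serine carboxypeptidase, rose 5.21-fold from 112 ± 5.32 to 586 ± 36.4 CPM, and HYAL3, of the hyaluronidase family, rose 2.54-fold from 19.0 ± 1.51 to 48.2 ± 1.97 CPM. Of 27 other membrane proteins, 13 rose and none fell with edgeR, with 1 lower at an unadjusted p under 0.05. They were led by CD68, the macrophage lysosomal glycoprotein (7.51-fold, 64.5 ± 7.29 to 484 ± 24.9 CPM). Of 17 other subunits of the proton pump, 10 rose and 2, ATP6V1C2 and ATP6V1E2, fell (-1.47 ± 0.34 and -0.82 ± 0.18), with TCIRG1 at 2.67-fold, ATP6V0B at 2.28-fold and ATP6V0E1 at 2.21-fold. Of 18 genes of mannose 6-phosphate sorting and transport, 9 rose, among them the receptor M6PR (1.76-fold) and the adaptor GGA2 (1.60-fold), and 1, the sorting receptor SORL1, fell (-0.66 ± 0.11). The list for TFEB regulation on the lysosome held genes of Ragulator, the Rag GTPases, FLCN and its partners, mTORC1, TSC, RHEB and calcineurin, and TFEC itself. Of these 22 genes, 11 rose, among them LAMTOR2 (2.20-fold) and TFEC, a further MiT/TFE factor (2.57-fold), and 1, the mTORC1 subunit MLST8, fell (-1.04 ± 0.10).

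The protease inhibitors did not move as a block. Of 6 cystatins and serpins tested, SERPINB1 (1.74-fold), CST3, cystatin C (1.63-fold), and CSTB, cystatin B (1.32-fold), rose with ATRA. CST7, cystatin F, an inhibitor of CTSC in immune cells, fell from 1198 and 1246 CPM to 342 and 354 CPM (log2 fold change -1.81 ± 0.10, edgeR adjusted p = 4.3e-08). Of 4 other cathepsins and granule proteases tested, CTSG, cathepsin G of azurophil granules, rose 1.60-fold, CTSO 2.11-fold and NAPSA 3.82-fold from a low level, and CTSV fell from 5.14 ± 0.894 to 2.62 ± 0.811 CPM (-0.96 ± 0.29).

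With LAA the neighboring lists gave few calls. None of their genes was called for LAA against vehicle with edgeR, and at an unadjusted p under 0.05, where 8.88% of all genes were lower and 10% higher, 7 of 28 other hydrolases were lower and 1 higher, 5 of 18 sorting genes were lower and 1 higher, and 3 of 27 other membrane proteins were lower and 0 higher. In each of the other 6 lists at most 3 genes were lower and at most 4 higher. For LAA+ATRA against ATRA, 2 of 28 other hydrolases and 1 of 18 sorting genes were called lower, against 0.52% of all genes tested. No gene of the lists was called higher, against 0.493%. Those called lower included PCYOX1, prenylcysteine oxidase (-0.64 ± 0.10), and IGF2R, the large mannose 6-phosphate receptor (-0.52 ± 0.11). The median log2 fold change of the other hydrolases was -0.20 for LAA against vehicle, with 21 of 28 negative, and -0.24 for LAA+ATRA against ATRA, with 22 of 28 negative, against 0.01 and 0.00 over all genes tested.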

How the data were processed

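RNA of U-937 cells was measured by poly-A RNA-sequencing in 8 libraries, 2 per group. The authors deposited estimated counts per Ensembl gene, made with Salmon 1.8.0 per the submitters' processing notes, which also name GRCh38, hg38 and DESeq2 1.36.0, and FPKM values, made by the authors per gene length and library size. The annotation release, strand setting and FPKM scaling were not given in the sources used here.

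Estimated counts were rounded, which changed 16.5% of values, and filtered with filterByExpr, which left 14995 of 61125 rows. Rows with no symbol held 1.49% of counts and stayed in the fit as Ensembl genes. Libraries were scaled by TMM and all 8 libraries entered 1 quasi-likelihood fit of 4 group means in edgeR 4.0.16 (R 4.3.3), with 4 residual degrees of freedom. P-values were two-sided and adjusted by the Benjamini-Hochberg method over all rows tested, separately by comparison, with calls made under 0.05. CPM values used the TMM-scaled library sizes. Standard errors came from the log2 fold change and its F statistic. The interaction is the log2 effect of LAA in the presence of ATRA minus that in its absence. FPKM served for levels between genes.

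All members could be named, and values in every library were chosen for members called at least 2-fold with ATRA or called in an LAA comparison, the 6 of highest FPKM, TFEB, TFE3 and MITF, and members of low counts, with other members added where a comparison turned on them. Of each pathway list, up to 3 genes called with ATRA were chosen by adjusted p, and genes that fell or were called with LAA were added after their values were seen. The members and lists were chosen with earlier results of these data known. Positions came from GENCODE 29 and promoters from RefSeq on GRCh38.p14. Alternatives were DESeq2 1.42.0, RLE size factors, no low-count filter, a replicate block, fits restricted to the libraries compared, limma 3.58.1 on log2(FPKM + 1) and log2(FPKM + 0.1) where a group averaged 1 FPKM or more and on log2(FPKM + 1) without that filter, leaving out each library in turn, and, chosen after seeing the data, offsets for transcript length and GC content. The fit was tested on simulated counts. Some genes are not reported here.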

Additional observations from a re-analysis of the deposited data

How the results depend on the processing

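The ATRA results moved little. Members called higher numbered 31 to 37 for ATRA against vehicle, 28 to 33 for LAA+ATRA against vehicle and 29 to 36 for LAA+ATRA against LAA over the alternatives, and 30 of 36, 28 of 34 and 28 of 36 calls were kept in every alternative run. The small LAA calls depended on the processing. For LAA against vehicle, where no member was called, members called lower numbered 10 with DESeq2, 4 with no low-count filter, 14 with only the libraries compared, 2 with length and GC offsets (chosen after seeing the data) and 0 to 3 when single libraries were left out, while 3 were called higher with only the libraries compared. For LAA+ATRA against ATRA, with 1 member called lower, the count was 9 with DESeq2, 7 with no low-count filter, 12 with length and GC offsets, 0 with only the libraries compared, 0 with each FPKM alternative and 0 to 1 when single libraries were left out. For LAA+ATRA against vehicle, with 2 called lower, leaving out single libraries gave 0 to 2. The cause of these differences was not tested. The median over members was negative throughout, from -0.05 to -0.17 for LAA against vehicle and from -0.14 to -0.19 for LAA+ATRA against ATRA.

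The replicate numbers did not pair the samples (correlations of same-numbered deviations from -0.12 to 0.10), and with a replicate block 0 members were called lower for LAA+ATRA against ATRA, since TPP1 was lost. The second CLN3 identifier, with 0 to 26 counts per library, reversed in LAA+ATRA against LAA, where its log2 fold change of -0.00 ran from -1.13 to 6.78 when single libraries were left out, the highest without LAA replicate 2. LGMN, the second CLN3 identifier, SGSH, ACP5 and CTSL are limited by depth.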

Other observations

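Among genes of azurophil granules and of autophagy, more rose than fell with ATRA, where 21.9% of all genes tested rose and 21% fell. Of 10 genes of azurophil granules, the lysosome-related organelles of myeloid progenitors, 8 rose and none fell at an adjusted or unadjusted p under 0.05 with edgeR, with a median log2 fold change of 1.06. SRGN, serglycin, the proteoglycan that packs granule proteases, rose 5.69-fold (561 and 590 CPM in vehicle, 2682 and 3871 CPM with ATRA). PRTN3, proteinase 3, rose 4.01-fold (494 and 551 CPM to 2164 and 2033 CPM), and ELANE, neutrophil elastase, rose 2.18-fold (2082 and 2131 CPM to 4716 and 4459 CPM). With LAA the median of this list was 0.18 against vehicle and 0.14 for LAA+ATRA against ATRA, and no gene of it was called in either comparison with edgeR, while 2 and 3 were higher at an unadjusted p under 0.05, against 10% and 9.16% of all genes tested.

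Of 17 autophagy genes of the CLEAR network, 11 rose with ATRA and 1 fell, against the same 21.9% and 21% of all genes, with a median log2 fold change of 0.42. VPS18, of the tethering complex of late endosomes, rose 2.16-fold (43.9 ± 0.0649 to 95.1 ± 7.94 CPM). SQSTM1, the cargo receptor p62, rose 1.74-fold and GABARAP, an ATG8 protein of the autophagosome membrane, rose 1.70-fold. UVRAG, a partner of the class III phosphatidylinositol 3-kinase, fell (log2 fold change -0.46 ± 0.12).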
